A study of Mus musculus with 2 samples.

Results

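Some 100-kb stretches of the mouse genome hold far more vitamin D receptor (VDR) peaks than the rest, and these crowded stretches are described here. The genome was divided into fixed windows of 100 kb counted from position 0 of each chromosome, on the autosomes and X. A window was crowded when 10 or more summits (the highest point of a peak) of the normal-diet list, or 10 or more of the deficient-diet list, lay in it. The windows were thus chosen by the peak positions of both lists, so the number of peaks in them is a description and not a finding. There were 357 crowded windows of 25709 between the first and last summit of the chromosomes. They held 2424 of the 23456 normal-diet peaks and 4398 of the 37661 deficient-diet peaks, which is 10.4% and 11.7% of the peaks on the autosomes and X.

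Both samples were left ventricle of E16.5 mouse embryos, 1 whose mother ate a normal diet and 1 whose mother ate a vitamin D deficient diet. The labels give neither genotype, strain nor sex, nor the number of mothers or embryos behind a sample. In each, DNA bound to VDR was recovered by immunoprecipitation and sequenced (ChIP-seq), and the authors deposited a list of called peaks on the mm10 build. With 1 library per diet no test between diets was possible, and the comparisons describe the 2 libraries.

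VDR is a nuclear receptor that binds DNA with a retinoid X receptor (RXR) partner once occupied by the active form of vitamin D. It recruits coactivators when the hormone is bound and corepressors when it is not. The classical site is a pair of hexamers in the same direction with a spacer of 3 bases, called the DR3 element. A ChIP-seq peak is a place where more fragments pile up than in the surrounding sequence.

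Promoter sequence was available from RefSeq (build GRCm38.p6, the same assembly as mm10) for 32619 gene starts of 26794 genes, each with 250 bases before and 50 after the start. Summits of both lists fell in the promoter of 12 genes in crowded windows, of the promoters in that table, and in all 12 the peaks overlapped. The 250 bases before the start of 4 of them are printed because these are the places where crowded peaks of both libraries meet a gene start. They are Sphk2 (sphingosine kinase 2), the most significant of those at the genome-wide background, Gm51594, a predicted gene with the highest -log10 q of all 12, and Gask1a and Qrfp (a neuropeptide of appetite control), which hold a VDR hexamer. Capitals mark a VDR hexamer on either strand: AGGTCA as the consensus, AGTTCA as found in many known elements, and the variants GGGTCA as well as its relative GGTTCA, and sequences run 5′ to 3′ on the strand of the gene. Sphk2 lies at chr7:45718003-45718252 on the minus strand, Gm51594 at chr8:55382541-55382790 on the plus strand, Gask1a at chr9:121950770-121951019 on the plus strand and Qrfp at chr2:31810581-31810830 on the minus strand.
Sphk2: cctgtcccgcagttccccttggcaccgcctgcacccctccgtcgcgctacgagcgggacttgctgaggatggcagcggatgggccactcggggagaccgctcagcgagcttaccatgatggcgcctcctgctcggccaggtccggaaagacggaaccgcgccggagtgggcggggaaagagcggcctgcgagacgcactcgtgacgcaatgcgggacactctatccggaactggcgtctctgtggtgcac
Gm51594: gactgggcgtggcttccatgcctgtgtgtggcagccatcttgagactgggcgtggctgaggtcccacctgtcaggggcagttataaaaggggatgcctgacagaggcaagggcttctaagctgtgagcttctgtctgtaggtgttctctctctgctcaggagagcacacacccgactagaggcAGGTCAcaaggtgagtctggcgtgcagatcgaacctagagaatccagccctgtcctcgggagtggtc
Gask1a: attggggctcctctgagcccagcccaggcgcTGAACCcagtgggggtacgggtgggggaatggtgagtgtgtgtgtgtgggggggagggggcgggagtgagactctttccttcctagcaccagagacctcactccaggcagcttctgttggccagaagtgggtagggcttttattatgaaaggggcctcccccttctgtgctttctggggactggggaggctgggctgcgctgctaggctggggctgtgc
Qrfp: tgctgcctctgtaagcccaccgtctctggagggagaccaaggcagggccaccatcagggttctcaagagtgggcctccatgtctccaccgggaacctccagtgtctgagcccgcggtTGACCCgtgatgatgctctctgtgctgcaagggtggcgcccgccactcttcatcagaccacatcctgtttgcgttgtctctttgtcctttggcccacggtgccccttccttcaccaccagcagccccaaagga

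At Sphk2 the normal-diet summit, with a pileup of 25 fragments, lay 229 bases before the start, and the deficient-diet summit, with a pileup of 24, lay 184 bases before it. The stretch printed for Sphk2 holds none of the hexamers. At Gm51594 the pileups were 44 and 59 fragments, and the background was 1.77 (normal diet) and 1.80 (deficient diet) relative to the genome. Gask1a had a pileup of 19 in each list, with summits 15 and 47 bases after the start, and Qrfp had pileups of 17 and 18, with summits 5 and 88 bases before it. Over all promoters 43.8% held at least 1 of the hexamers on either strand, overlapping matches included. Of the 60 promoters with a normal-diet summit of a crowded window 35% held one, and of the 98 with a deficient-diet summit 33.7%. Of the 14 promoters of the 12 genes with summits of both lists, 3 held one, 21.4%. These are the printed Gm51594, Gask1a and Qrfp, so the printed sequences show hexamers more often than the set they come from. A DR3 element made of these hexamers was found in 13 of all promoters, 0.0399%, and in none of those with a crowded summit. The median share of G and C was 61.5% and 62% in the promoters with crowded summits of the normal-diet and deficient-diet lists and 53% over all promoters. Promoters with a summit anywhere had like values, with a median of 62.67% in each list and a hexamer in 37.67% and 37.64%, and all 1520 promoters in crowded windows had a median of 59.67%. These letters describe the windows printed and say nothing about bound sites outside them.

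The crowded windows were unevenly shared by the lists. The normal-diet list crowded 71 windows, 0.276% of all windows, and the deficient-diet list 338, 1.31%. Both lists crowded 52 windows, 0.202% of all, while 19 were crowded in the normal-diet list alone and 286 in the deficient-diet list alone. In the windows crowded by the normal-diet list the median number of deficient-diet summits was 14, and in those crowded by the deficient-diet list the median number of normal-diet summits was 6. The deficient-diet list is the longer, and its recovered genome-wide background was 2.03 times that of the other library; read depth is unknown, and the part of either in these counts was not tested. With that list shortened to the length of the normal-diet list by -log10 q (the authors' peak significance after correction for multiple testing), it crowded 63 windows and the lists shared 28. With equal lengths the normal-diet list crowded the more windows, 71 against 63.

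**Figure D1:**
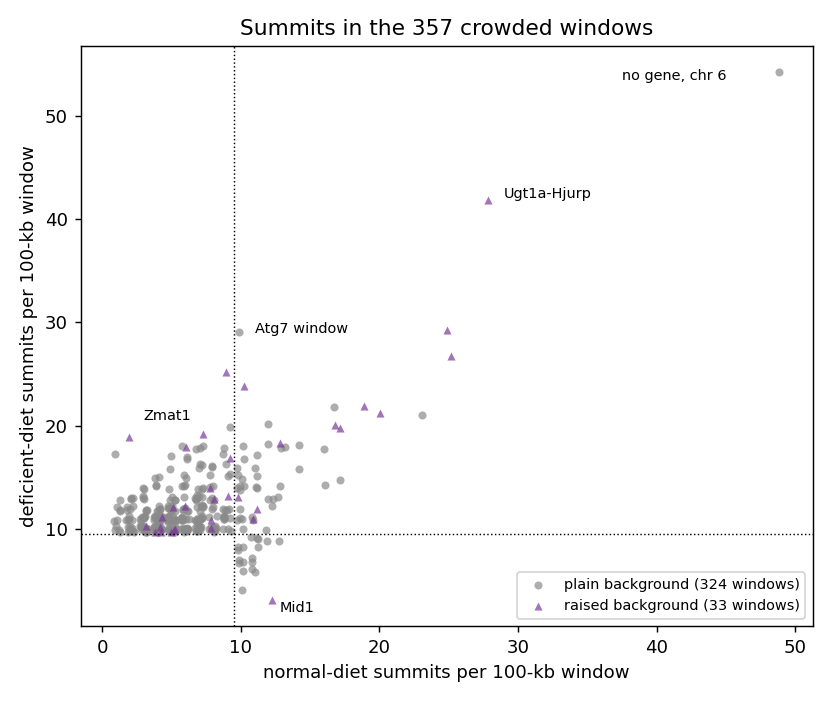
Each point is 1 of the 357 crowded windows, with its normal-diet summits on the x axis and deficient-diet summits on the y axis (points moved by up to 0.3 so that they do not hide each other); dotted lines mark the minimum of 10. The window at the top right, with 49 and 54 summits, holds no gene, and triangles mark the 33 windows of raised background.

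Windows just inside and just outside the threshold had near-equal shares of overlapping peaks. The higher of the counts was exactly 10 in 111 windows and exactly 9 in 157 windows just outside. Of the normal-diet peaks in the former 34.6% overlapped a deficient-diet peak, and in the latter 34.7%. For deficient-diet peaks the shares were 18.5% and 19.3%.

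The windows fell into 259 loci when neighbours were joined, of which 202 were a single window and 12 ran over 4 or more. The longest ran over 7 windows each. The locus at chr10:79700001-80400000 held 72 normal-diet and 85 deficient-diet peaks, of which 21 and 20 had a partner. It is dense in genes, among them Gpx4 (a glutathione peroxidase that protects membrane lipids), Stk11 (a kinase that activates AMPK), Cirbp, Polr2e and Mbd3. The other, at chr15:76000001-76700000, held 60 and 81 peaks with 22 and 21 partners, and includes Plec and Eppk1, both genes of giant cytoskeletal linkers.

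Chromosomes 4 and 8 had 42 crowded windows each, and chromosome 13 had 1. As a share of the windows of a chromosome, 8 led with 3.33%, followed by 15 with 3.17%, 11 with 2.78%, 4 with 2.74% and 17 with 2.72%. X had 3 windows, 0.179% of its own, all of raised background. Of the windows at plain background 77 of 324, 23.8%, lay within 10 Mb of the last gene end of their chromosome, against 7.86% of all windows.

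**Figure D2:**
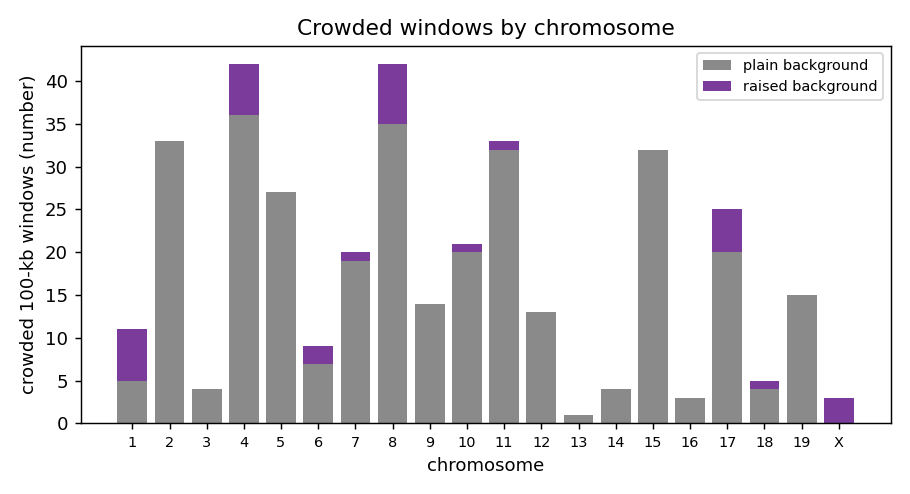
Bars give the number of crowded windows on each chromosome, split into windows of plain (grey) and raised (purple) background. Chromosomes 4 and 8 reach 42 windows, and all 3 windows of X are of raised background.

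The windows were of different kinds by the background at their summits. Background, the number of fragments expected at a summit from its surroundings, was recovered from the authors' fold enrichment and p-value. In 33 windows the median over peaks of both lists was 1.5 times the genome-wide value or more, with a median over windows of 3.42 and a highest of 14.3. These are called windows of raised background and the other 324 windows of plain background. The limit of 1.5 was set after the values were seen: 6 windows lay between 1.2 and 1.5 and 8 between 1.5 and 2. In windows of raised background the median pileup was 41 (normal diet) and 55 fragments (deficient diet), against 16 and 22 in those of plain background and the same 16 and 22 in the whole lists.

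The raised backgrounds recovered from the 2 lists were nearly the same once each was divided by its genome-wide value. Over the 32 such windows with 3 or more summits in each list, Pearson's r of the log2 values was 0.973 and Spearman's rho 0.957, as a description over windows that share 2 libraries and, in part, a neighbourhood. The ratio of the deficient-diet to the normal-diet value had a median of 1.03 and ran from 0.813 to 1.64. The windows were chosen by these same background values, pooled over both lists. The control used in peak calling is not given. If both lists had a control in common, their backgrounds would not be independent, and this could not be checked.

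**Figure D3:**
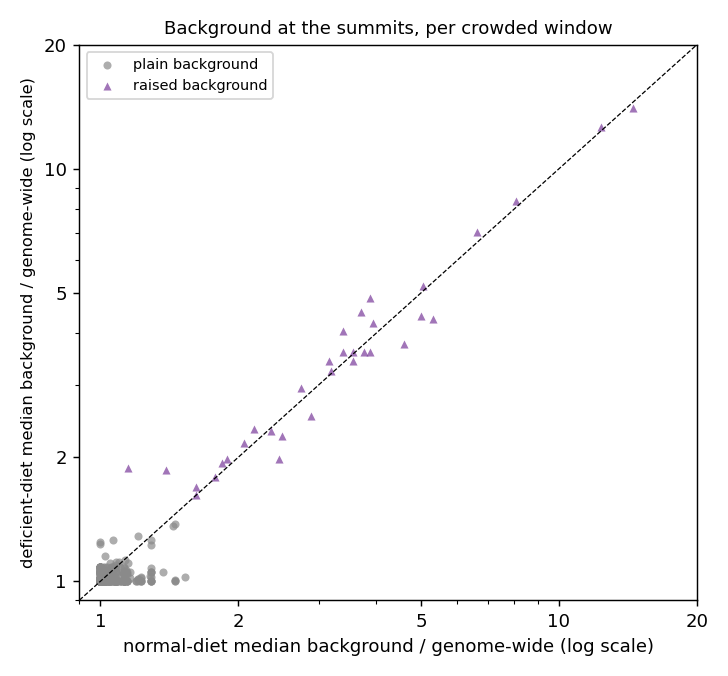
For each crowded window the median background at its summits, divided by the genome-wide background of the library, is plotted for the normal-diet list (x axis) and the deficient-diet list (y axis), both on log scales; the dashed line marks equal values. Windows of raised background (triangles) run along the line, up to 14.5 and 14.1 in the window of Sfi1.

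Sharing differed by kind of window. A peak is called shared, or with a partner, when 1 bp or more of it is also covered by the other list. Over the whole lists 33.9% of the normal-diet peaks had a partner, and 21.2% of the deficient-diet peaks. In the crowded windows 1004 of 2424 normal-diet peaks did, 41.4% (95% exact binomial interval 39.4 to 43.4%), and 1001 of 4398 deficient-diet peaks, 22.8% (21.5 to 24.0%). Intervals cover counting error only. The windows of raised background held 282 of these normal-diet peaks with a partner, 83.7% of their peaks (79.3 to 87.5%), and 284 of the deficient-diet ones, 54.0% (49.6 to 58.3%). The windows of plain background had 34.6% (32.6 to 36.7%) and 18.5% (17.3 to 19.8%), near the share of the whole normal-diet list and below that of the whole deficient-diet list. In the normal-diet list the peaks of windows of raised background were also more significant than those of plain background, with median -log10 q 8.18 against 4.28. They were wider too, with medians of 283 and 233 bp. The part of background, significance and width in the sharing was not tested further.

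**Figure D4:**
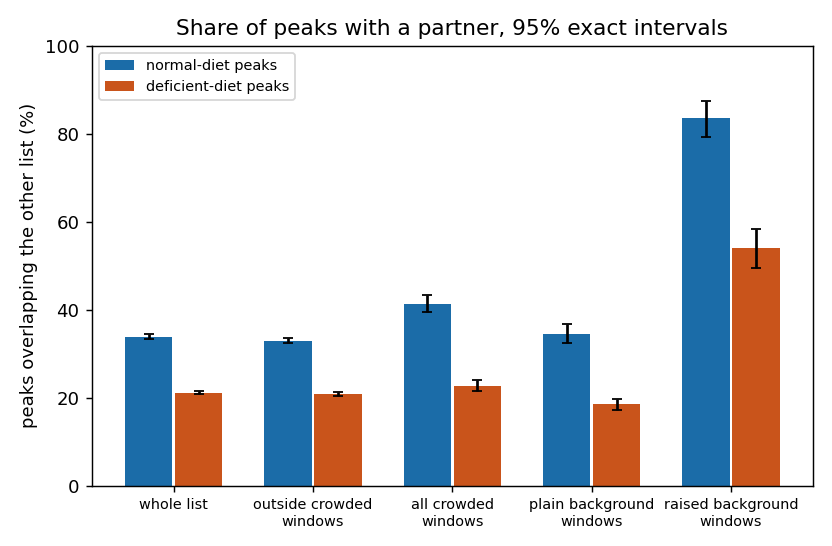
Bars give the percentage of peaks of each list with a partner (1 bp or more shared), with exact 95% binomial intervals for counting error. The bars of windows of raised background, at 83.7% and 54.0%, stand above the others, and those of windows of plain background are at 34.6% and 18.5%.

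The length covered by peaks also differed between the kinds of window. In windows of raised background, deficient-diet peaks covered a median of 4.83% of the window and normal-diet peaks 2.60%, and in those of plain background 2.66% and 1.48%. Summits of partners lay a median of 34.5 bp apart in windows of raised background and 96 bp apart in those of plain background. In 50 windows of plain background no peak had a partner, and in 93 at least 50% of the normal-diet peaks did. Some of the latter held few normal-diet peaks. At chr11:95000001-95100000 1 of 1 normal-diet peak had a partner, against 1 of 11 deficient-diet peaks. Among the 1004 normal-diet peaks with a partner, the pileup of the partner was a median of 1.43 times as high, with 1.14 and 1.79 at the 10th and 90th percentiles, while the genome-wide background was 2.03 times as high.

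Relative to genes, crowded peaks were mostly inside them. Of all normal-diet peaks 22.8% had a summit within 1 kb of a gene end, and of the deficient-diet peaks 18.7%. In the crowded windows the shares were 23.7% (22.04 to 25.47%) and 22.9% (21.7 to 24.2%). Elsewhere inside gene spans lay 61.9% and 63.5% of crowded summits, against 45.7% and 48.7% of all summits, and outside spans 14.4% and 13.6%, against 31.5% and 32.6%. Windows of raised background differed, with 37.7% and 36.7% of summits outside spans, against 10.6% and 10.4% in those of plain background. A window of plain background held a median of 4 protein-coding genes, one of raised background 1, and all windows 1.

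The most crowded window of both lists, chr6:114500001-114600000, overlapped no gene of the table. It held 49 normal-diet and 54 deficient-diet summits, of which 32 and 31 had a partner, spread from 2154 to 99631 bp and from 515 to 99301 bp from its start. Its peaks covered 16.8% and 18.5% of the window. Its background was close to the genome-wide value, 1.13 times in each list, and its median pileups were 17 and 24.5 fragments. The window next to it, which holds part of Atg7 (an enzyme of autophagy), had 10 normal-diet and 29 deficient-diet summits, all within its first 37351 bp. None of them lay in or within 1 kb of Atg7 or another gene of the table.

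Several windows of raised background held multicopy or clustered genes. At chr1:88200001-88300000, 28 normal-diet and 42 deficient-diet summits lay in a stretch with the Ugt1a genes (which make glucuronosyltransferases, enzymes that conjugate bilirubin and drugs), Mroh2a and Hjurp (the chaperone of the centromere histone CENP-A). Of these, 25 and 22 had a partner. Mroh2a took 20 and 26 of the summits and Hjurp 8 and 13, in spans that overlap. At all 9 Ugt1a genes, whose spans share their last exons, the crowded summits in or within 1 kb of the gene were deficient-diet ones only. Most of these spans begin before the window, and summits there were not counted. The genes share the same summits, at most 3 each. At Ugt1a1 there were 2, with pileups of 75 and 70 over backgrounds of 6.31 and 6.85 relative to the genome. Their fold enrichments were 2.17 and 1.88.

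The window of Sfi1, which encodes a centrin-binding protein of the centrosome, had the highest background, 14.5 (normal diet) and 14.1 (deficient diet) relative to the genome. It lies at chr11:3100001-3200000 and held 25 and 27 summits, 20 of each with a partner. Median pileups there were 117 and 174 fragments. The most significant crowded normal-diet peak lay in it, at chr11:3192987-3193691, where 308 fragments stood over a background of 100.1 (-log10 q 55.7). Its partner reached 314 fragments (-log10 q 9.31). Another partnered peak of Sfi1, at chr11:3132020-3132442, had 171 fragments, and its partner 207. The 3 most significant crowded normal-diet peaks without a partner also lay in Sfi1, with pileups of 197, 75 and 71.

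Small RNA genes marked 3 of the windows. At chr1:171000001-171100000, a cluster of transfer RNA genes beside the immunoglobulin receptor genes Fcgr3 and Fcgr4, there were 17 and 20 summits, 15 and 16 with a partner, and the background was 3.55 and 3.42 relative to the genome. At chr6:47600001-47700000, which holds the 4.5S RNA gene Rn4.5s, there were 20 and 21 summits, 18 of each with a partner. The window next to it, chr6:47700001-47800000, held 17 and 20 summits, 17 of each with a partner, and the background was 8.06 and 8.38 relative to the genome. A deficient-diet peak in the former, at chr6:47681591-47682253, had 131 fragments over a background of 26.2, and its partner 72. At chr7:59700001-59800000, inside Snhg14 (the host transcript of small nucleolar RNA clusters in the imprinted Prader-Willi region), there were 7 and 19 summits, 6 of each with a partner.

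Neighbouring windows of raised background made up several further loci. At chr1:84900001-85300000, 4 windows held 23 and 42 peaks, with 17 and 16 partners. On chromosome 4, 6 windows between 145700001 and 147500000 were crowded, and the zinc finger gene Zfp978 alone took 14 normal-diet and 35 deficient-diet summits, 12 of each with a partner. On chromosome 8, 6 windows between 19700001 and 20800000 were crowded, and the fullest, at chr8:20600001-20700000, had 25 and 29 summits with 24 and 23 partners. At chr17:13100001-13500000, 4 neighbouring windows held 24 and 63 peaks, 17 of each with a partner, and the fullest of them, from 13300001, held 9 and 25. At chr8:55300001-55400000, with the predicted genes Gm51590, Gm51594 and Gm46063, there were 19 and 22 summits, 18 and 20 with a partner. The background there was 3.94 and 4.23 relative to the genome. A deficient-diet peak in it, at chr8:55362923-55364647, had 188 fragments, and its partner 121. The most significant crowded deficient-diet peak with a partner lay at chr10:58231776-58232870 in Duxf3, a multicopy homeobox gene, with 225 fragments against a background of 64.04, and its partner had 141. Close by, a normal-diet peak at chr10:58224298-58225588 had 150 fragments (-log10 q 48.0), and its partner 205. The most significant without a partner lay outside gene spans at chr18:82170734-82170917, with 134 fragments over 46.6. The next in significance lay at chr8:20367478-20367666, with 87 over 26.2, and in Snhg14 at chr7:59743627-59743872, with 93 over 30.1.

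The X chromosome showed differences in both directions. At chrX:135000001-135100000, with Zmat1 and the long noncoding RNA 3632454L22Rik, there were 2 normal-diet and 19 deficient-diet summits. All of these lay in or within 1 kb of 3632454L22Rik. At chrX:169900001-170000000, which holds the end of Mid1, a gene that reaches the region paired with Y, there were 12 and 3, of which Mid1 took 7 and 2. In both windows the background was raised, at 2.46 and 1.98 in the former and 4.60 and 3.77 in the latter, relative to the genome. These windows were singled out after their values were seen, and with 1 library per diet a difference between them has no replicate check.

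Windows of plain background held long genes with many peaks. In all, 1623 genes of 49550 in the table had a crowded summit in their span or at most 1 kb outside it, 1216 of them protein-coding, and 930 had one in both lists. Gse1, which encodes a subunit of a CoREST and histone deacetylase complex and spans 352.9 kb, had the most, with 31 normal-diet and 49 deficient-diet summits, of which 4 of each had a partner. Ccdc85c had 14 and 14 with 3 partners each, in a window with 17 and 15 summits, and Nphp4 (nephrocystin 4, a protein of the cilium base) 14 and 18 with 4 each. Ulk4 had 16 and 17 with 10 each, in a window of intermediate background, at 1.45 times the genome-wide value in the normal-diet list. Aatk (a kinase of neurons) had 6 and 12 summits and its neighbour Cep131 (a centrosome protein) 7 and 6, in a window with 17 and 22.

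Sharing varied widely between such genes. The window chr12:112700001-112800000, with Ahnak2 and Cep170b, held 23 and 21 summits, 16 and 12 with a partner. At Ahnak2, which encodes a giant scaffold protein with a repeated coding exon, 12 normal-diet summits included 11 with a partner and 8 deficient-diet summits included 7. Several of the 11 overlapped the same wide deficient-diet peak, as at chr12:112779606-112781201, with summits up to 561 bp apart. The 11 are thus not as many separate shared sites. In Bsn (bassoon, of the presynaptic active zone) 7 of 10 and 7 of 14 had a partner. In Flg (filaggrin, also coded by repeats) it was 6 of 8 in each list. In contrast, Nfix (a nuclear factor I transcription factor) had 11 and 9 summits and none with a partner, and Rbm19 had 8 and 14 and none. Bsn, Flg, Nfix and Rbm19 were chosen after their values were seen, to show the range.

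**Figure D5:**
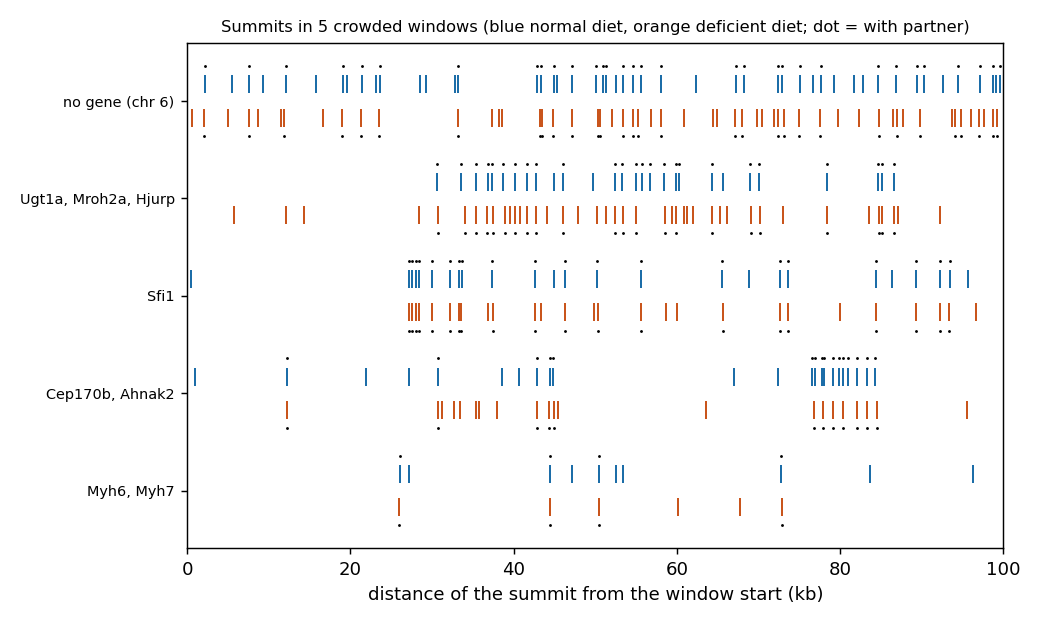
Ticks give the summits of 5 crowded windows by their distance in kb from the start of the window, normal diet in blue above and deficient diet in orange below, with a dot where the peak has a partner. In the window of Sfi1 most ticks have a partner. In that of Ugt1a, Mroh2a and Hjurp 25 of 28 normal-diet and 22 of 42 deficient-diet ticks do. For Myh6 and Myh7 it is 4 of 10 and 4 of 6.

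Genes of the contractile apparatus were among the crowded ones. Of 25 sarcomere genes, 4 lay in crowded windows, 16%, against 4.37% of all genes and 6.55% of protein-coding genes of the table. Of the 25, 3 had a crowded normal-diet summit and 4 a deficient-diet one, against 1094 and 1459 of all 49550 genes. Myom2 (myomesin 2, of the M band) had no normal-diet and 2 deficient-diet crowded summits, each with 21 fragments. Outside the list, Speg (a kinase of striated muscle) had 3 and 6 crowded summits, 2 of each with a partner, and Flnc (filamin C, of the Z disc) had 4 and 4 with no partner. Myom2 and Speg reach beyond their crowded windows, and summits in those parts were not counted.

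Myh6 and Myh7, the alpha and beta heavy chains of cardiac myosin, share the window chr14:54900001-55000000, which was crowded in the normal-diet list alone with 10 summits, against 6 in the other. Of these, 4 of each had a partner. Myh6 had 5 normal-diet summits with pileups of 18 to 19 fragments and 4 deficient-diet summits with 19 to 26. Both its shared sites were inside the gene. The first lay at chr14:54944383-54944567 (normal diet) and chr14:54944336-54944542 (deficient diet), with 18 and 24 fragments and summits 66 bp apart. The second lay at chr14:54950296-54950635 and chr14:54950344-54950589, with 18 and 26 fragments and summits 70 bp apart. Another shared site lay where the spans of Myh7 and of Mhrt, a long noncoding RNA of that locus, overlap, at chr14:54972544-54972997 and chr14:54972689-54972975, with 17 and 22 fragments. Median pileups of the whole lists were 16 and 22, so these sites were of ordinary height.

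Of 36 heart transcription factor genes, 5 lay in crowded windows, 13.9% (4.37% of all genes, 6.55% of protein-coding genes). Foxc2 (a forkhead factor of vessel and outflow tract formation) had 3 and 3 summits, 2 of each with a partner. Tbx1 (a T-box factor of the outflow tract) had 3 and 2, Tbx2 (a T-box repressor of chamber genes) 1 and 3, Mef2b 1 and 1, and Srf (serum response factor, a regulator of muscle genes) 0 and 2. None of these 4 had a partner, and their pileups ran from 13 to 16 fragments (normal diet) and from 20 to 26 (deficient diet).

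Of 16 genes of the vitamin D pathway, 2 lay in crowded windows, 12.5%, with the same shares of 4.37% and 6.55% over all and protein-coding genes. Rxrb, which encodes an RXR partner of VDR, had no normal-diet and 3 deficient-diet summits in its 6.592 kb, with 21 to 25 fragments. Of 21 chromatin structure genes 1 lay in a crowded window, 4.76%, between those shares: Ncaph2 (a condensin II subunit), with 4 and 2, of which 2 of each had a partner.

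Clustered gene families differed in how many members lay in crowded windows. Of 58 clustered protocadherin genes (cell surface cadherins of neurons in tandem arrays), 28 lay in crowded windows, 48.3%, and 25 had a normal-diet and 26 a deficient-diet summit. These counts rest on few sites, since the spans overlap: the windows chr18:36900001-37000000 and chr18:37700001-37800000 held 9 and 10 and 6 and 12 summits. Of 50 genes of the major histocompatibility complex (MHC) 9 lay in such windows, 18%, with H2-Q6 and H2-Q7 at 2 and 3 summits each. Of 43 Hox genes 5 did, 11.6%, all in the Hoxb cluster in a window with 4 normal-diet and 10 deficient-diet summits. None of 1428 olfactory receptor genes, 674 antigen receptor segments, 83 defensin genes or 14 globin genes did. Of 448 zinc finger genes 17 did, 3.79%, of 625 vomeronasal receptor genes 7, 1.12%, of 111 keratin genes 3, 2.7%, of 69 serpin genes 2, 2.9%, of 134 cytochrome P450 genes 1, 0.746%, of 203 multicopy genes such as Duxf3 2, 0.985%, and of 78 ribosomal RNA genes 1, 1.28%. Of 1193 microRNA genes 97 lay in such windows, 8.13%, and 41 had a crowded summit, and of 133 named snoRNA genes 12 did, 9.02%, and 5 had one. The counts of 41 and 5 with a summit are near the share over all genes, 1623 of 49550. By gene type in the table, 5% of all 1340 snoRNA genes and 1.89% of 1003 snRNA genes lay in crowded windows. A list of 23 genes at places known for piled-up reads, drawn up with earlier results of these data in view, had 4 in crowded windows, all with summits of both lists: Sfi1, Hjurp, Mid1 and Duxf3.

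The gene lists added later gave 30 of 403 transfer RNA genes in crowded windows, 7.44%, 17 of them with summits of both lists. Most of these lie close together in the window chr1:171000001-171100000, which held 17 normal-diet and 20 deficient-diet summits. With 1 kb allowed on each side, 1 summit can count for several of these genes. Of 70 histone genes under their newer names 1 lay in such a window and none had a summit there. Of 15 genes of giant cytoskeletal proteins 7 lay in crowded windows, 46.7%, all with summits of both lists. Over all genes the share in crowded windows was 4.37%, and over protein-coding genes 6.55%. Summits of both lists were found for 930 of all 49550 genes. The list was drawn up after Plec and Eppk1 were seen in crowded windows, so its share is a description and not a finding. The part of gene length in this share was not tested. Plec (plectin, which links intermediate filaments to junctions) had 10 and 18 summits, 3 of each with a partner, at 14 to 21 and 18 to 29 fragments. Eppk1 (epiplakin) had 3 and 4, and its most significant peaks had a -log10 q of 30.5 and 23.9.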

How the data were processed

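Each VDR ChIP-seq library (1 per diet, embryonic day 16.5) has 1 deposited narrowPeak list on mm10, per the file headers. MACS2 and SAMtools are named, without versions, per the submitters' processing notes; the threshold, control and aligner are not given in the sources used here. The authors' deposited values are a fold enrichment (a ratio over local background), the -log10 p-value and the -log10 q-value of each peak. In the normal-diet list 23455 of 23457 lines join end and score, which were parted at the point, and 1 line without a start was left out.

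Pileup (fragments at the summit) and background were recovered as the whole number whose Poisson p-value and fold match the deposited ones, to within 0.000293 (normal diet) and 0.000266 (deficient diet). The genome-wide background was the lowest of a list on the autosomes and X, 2.65 and 5.38 fragments. Read depth is unknown; the median pileup of 16 and 22 fragments limits precision. Partners were found by overlap of at least 1 bp, genes by the spans of RefSeq GRCm38.p6, and intervals are exact (Clopper-Pearson) at 95%. Python 3.11.15, numpy 2.4.6, pandas 2.3.3 and scipy 1.17.1 were used, and the recovery and overlap steps were tested on simulated data.

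No test between diets was made, as each has 1 library. Open to naming were the 12 windows crowded in both lists with the highest smaller count and the 8 fullest windows per list (15 in all), with up to 3 genes each; up to 4 genes of a gene list, by number of summits; and per list the 3 peaks of highest -log10 q among those that had a partner and among those that had none; a window or gene from outside this rule was picked after its values were seen. The members and lists were chosen with earlier results of these data known, and the tRNA, Ugt1a, newer histone and giant cytoskeletal gene lists were added later. The histone list matched 0 gene names. Sequence of the peaks away from promoters was not used here. Some items of the gene lists are not reported here. The promoter counts and shares include chromosome 18, which was left out only from the list of genes whose promoters hold summits of both lists.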

Additional observations from a re-analysis of the deposited data

Results flagged for a closer look

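Signal lay outside the autosomes and X, in sequences the comparisons above leave out. On the unplaced sequence JH584304, 57 normal-diet and 50 deficient-diet summits lay in the first 100 kb, and the median background was 26.4 and 26.0 relative to the genome. On Y, the window from 90700001 to 90800000 held 29 normal-diet summits and 4 deficient-diet ones, at a normal-diet background of 3.70 times the genome-wide value. On the unlocalised sequences of chromosome 1, 6 windows held 13 and 22 (GL456211), 13 and 12 (GL456212) and 16 and 11 (GL456221) deficient-diet summits, where the normal-diet list had 4 and 7, 2 and 5, and 6 and 2. Their backgrounds ran from 1.98 to 3.51 times the genome-wide value.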

How the results depend on the processing

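For 7 results 33 values were recomputed: 12 kept within the reported 95% interval (shares) or a factor of 1.5 (counts), and 21 moved further. Shifting the windows by 50 kb kept all 7 results within those limits. Leaving out the windows of raised background was chosen after seeing the data. Counts fall by construction under stricter settings. With 12 or more summits there were 29 crowded windows in the normal-diet list, 154 in the deficient-diet list and 25 in both. Peaks with -log10 q of at least 5 crowded 12 and 17 windows, and with lists of equal length 63 in the deficient-diet list and 28 in both. The share of crowded peaks with a partner was 27.3% and 15.05% (normal and deficient diet) with overlap by 50% of both peaks, 24.7% and 13.6% with summits within 100 bp, 48.1% and 26.7% with 12 or more summits, 55.8% and 37.4% for members with a -log10 q of 5 or more, and 34.6% and 18.5% without windows of raised background. The share near a gene end was 44.5% and 43.6% with 3 kb and 18.2% and 16.985% with protein-coding genes only. Shares over the whole lists at these other settings are not given here. The values thus describe crowded peaks alone and do not set them apart from other peaks. The cause of moves not set by construction was not tested. No paired analysis was possible because the diets have a single library each, and none could be left out. Read depth is unknown; the recovered background differed 2.03 times between the libraries, and its part in the counts was not tested.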
